A study of Rattus norvegicus with 12 samples.

Results

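Transcripts of 6 genes that encode the upper and middle steps of the RAS, RAF, MEK and ERK cascade were followed in skin-derived precursors (SKPs), dermal precursor cells that grow as floating spheres. They were Hras and Nras, Araf and Braf, and Map2k1 and Map2k2, which encode the kinases MEK1 and MEK2. The rule named 7 genes and took every array feature that carries 1 of these symbols alone, the brightest if several. Each of the 6 had 1 feature, among 18166 genes with such a feature, and all 6 lay above the limit for low signal (a mean log2 value of 5.83), among 13636 genes tested. Mapk3, the seventh, was not analysed here.

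The cells came from newborn Sprague-Dawley rats and were studied in 4 groups of 3 arrays, 12 arrays in all. Dissociated cells of secondary spheres were treated for 24 h with 100 nM trimebutine maleate together with 100 nM trametinib, with 100 nM trimebutine maleate alone, with 100 nM alprostadil, or with vehicle. Trametinib inhibits MEK1 and MEK2, trimebutine is a gut motility drug, and alprostadil is prostaglandin E1. All groups shared a growth medium with 20 ng/ml EGF and 40 ng/ml FGF2, growth factors that signal through this cascade. No group received trametinib alone, so its part and that of the pair of drugs cannot be told apart. The cells are primary cultures from 3 independent isolates, and whether an isolate pooled several pups is not given in the sources used here.

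In this cascade a receptor tyrosine kinase loads RAS, a small GTPase at the membrane, with GTP. RAS then recruits RAF kinases, RAF phosphorylates MEK, and MEK phosphorylates ERK, which enters the nucleus and drives genes of growth and of its own negative feedback. Cells control the cascade mainly through phosphorylation, and the arrays measured transcripts only. In these bulk cultures, fewer cells of a type and less RNA per cell cannot be told apart.

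When trametinib was added to trimebutine, 4 of the 6 genes rose (Hras, Nras, Braf and Map2k2), Map2k1 fell, and Araf did not pass. The test was limma's moderated test over all 13636 genes with an adjusted p under 0.05, and 33.4% of all genes tested passed it in this comparison (16.8% higher and 16.6% lower). Differences of the 6 genes lay from −0.24 to 0.46 on the log2 scale, and their median size, without sign, was 0.26, beside 0.16 for all genes tested. The groups did not overlap for any of the 6, beside 45.8% of all genes tested. Values below are log2 expression values of an array, in the order of replicates 1 to 3, and differences are between means of 3 arrays, each with its standard error (SE).

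Nras encodes a RAS protein. Its values were 11.84, 11.82 and 11.76 with trimebutine and trametinib, against 11.45, 11.44 and 11.38 with trimebutine alone. The lowest array with trametinib lay above every other array, since alprostadil gave 11.40, 11.43 and 11.40 and vehicle 11.45, 11.45 and 11.34. Nras rose by 0.38 (SE 0.05, adjusted p = 0.000212) against trimebutine, a 1.30-fold level with a 95% interval from 1.20 to 1.42. Paired by replicate number, the differences were 0.39, 0.38 and 0.38, nearly the same in every replicate. Of all genes tested, 19.9% moved at least as far.

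Hras encodes the other RAS protein with a feature here. It had 7.96, 7.90 and 7.73 with trimebutine and trametinib, against 7.64, 7.62 and 7.55 with trimebutine alone. Alprostadil arrays had 7.57, 7.43 and 7.41, and vehicle arrays had 7.49, 7.55 and 7.51. All 3 arrays with trametinib were above the 9 others, and replicate 3 was the lowest of them. Hras rose by 0.26 (SE 0.07, adjusted p = 0.0145) against trimebutine, with within-replicate differences of 0.33, 0.28 and 0.18. This call was lost without trimebutine replicate 3 (adjusted p = 0.0521), combination replicate 1 (0.0588) or combination replicate 2 (0.0521), and also without replicate 2 in all groups with the replicate number as a block (0.0728), while the difference stayed between 0.21 and 0.33 and the lowest adjusted p was 0.00428 over all alternatives.

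Braf encodes the RAF kinase with the highest basal activity, and it had the largest change of the 6. Its values were 8.96, 9.10 and 9.12 with trimebutine and trametinib, against 8.60, 8.60 and 8.61 with trimebutine alone, 8.72, 8.68 and 8.70 with alprostadil and 8.62, 8.62 and 8.69 with vehicle. The trametinib arrays stood well above the rest, which spanned 8.60 to 8.72. Braf rose by 0.46 (SE 0.06, adjusted p = 7.74e-05), a 1.37-fold level, with a 95% interval of the difference from 0.33 to 0.58. Within replicates the rises were 0.36, 0.51 and 0.51. Of all genes tested, 15.8% moved at least as far.

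Araf, which encodes a RAF kinase of weaker basal activity, moved least. It had 10.05, 10.16 and 10.13 with trimebutine and trametinib, against 9.98, 9.98 and 9.92 with trimebutine alone and 9.95, 10.02 and 9.89 with vehicle. The groups did not overlap, but replicate 1 with trametinib lay close to the trimebutine arrays. Its difference of 0.15 (SE 0.06, adjusted p = 0.0874) did not pass, although it was above 0 in each replicate (0.06, 0.18 and 0.21). The 95% interval ran from 0.01 to 0.29. Blocking on the replicate number gave an adjusted p of 0.0515, where 42.0% of all genes passed.

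Map2k1, which encodes MEK1, was the only one of the 6 whose level fell. It had 9.45, 9.52 and 9.56 with trimebutine and trametinib, against 9.75, 9.73 and 9.77 with trimebutine alone. Alprostadil gave 9.75, 9.86 and 9.86 and vehicle 9.77, 9.84 and 9.83, so the highest trametinib array was below all 9 others. Map2k1 fell by 0.24 on the log2 scale (SE 0.06, adjusted p = 0.00537), a 1.18-fold lower level. The changes within replicates were −0.30, −0.22 and −0.22.

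Map2k2, which encodes MEK2, went the other way. It had 9.70, 9.80 and 9.73 with trimebutine and trametinib, against 9.59, 9.49 and 9.39 with trimebutine alone. Alprostadil arrays of Map2k2 had 9.30, 9.55 and 9.51, and vehicle arrays 9.39, 9.51 and 9.43, all below the lowest array with trametinib. The trimebutine arrays were widely spread and replicate 1 was close to the trametinib arrays, so the rises within replicates were unequal, at 0.11, 0.31 and 0.33. Map2k2 rose by 0.25 (SE 0.08, adjusted p = 0.0261). That call was lost without trimebutine replicate 2 (adjusted p = 0.0645) or 3 (0.0961), without combination replicate 2 (0.0910) or 3 (0.0527), when arrays were centred on their medians (difference 0.22, adjusted p = 0.0920), and with the replicate block without replicate 2 (0.173) or 3 (0.109), with adjusted p from 0.00574 to 0.173 over all alternatives.

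**Figure D1:**
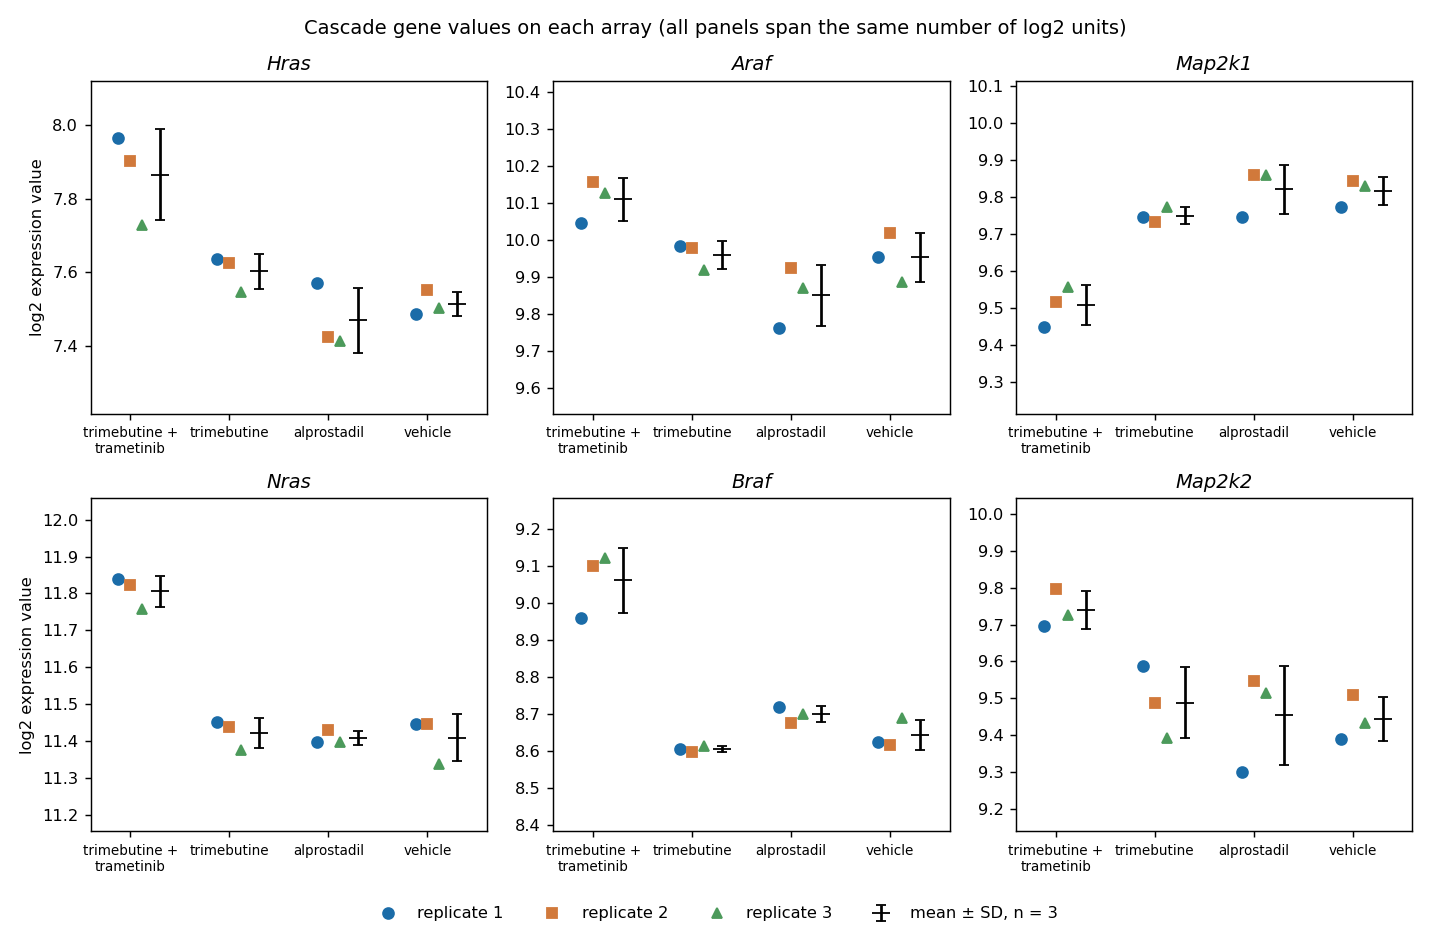
Log2 expression value (y axis) of each of the 6 genes on every array, by treatment (x axis), with a symbol for each replicate number and the mean ± SD of 3 arrays as a bar. The 3 arrays with trametinib lie above all others for Hras, Nras, Araf, Braf and Map2k2, and below all others for Map2k1, where the highest is 9.56.

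The opposite course of the MEK genes was also taken as a difference within each array, Map2k1 minus Map2k2. Levels of different features are not on a common scale, so only the change of this value can be read and not its sign. It was −0.25, −0.28 and −0.17 with trimebutine and trametinib, against 0.16, 0.24 and 0.38 with trimebutine alone, 0.44, 0.31 and 0.34 with alprostadil and 0.38, 0.34 and 0.40 with vehicle. The groups with and without trametinib did not overlap. The change was −0.49 against trimebutine and −0.60 against vehicle, a shift of 1.41-fold and 1.52-fold towards Map2k2. The pair was set side by side with its opposite directions known, so these values are a description and carry no test.

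**Figure D2:**
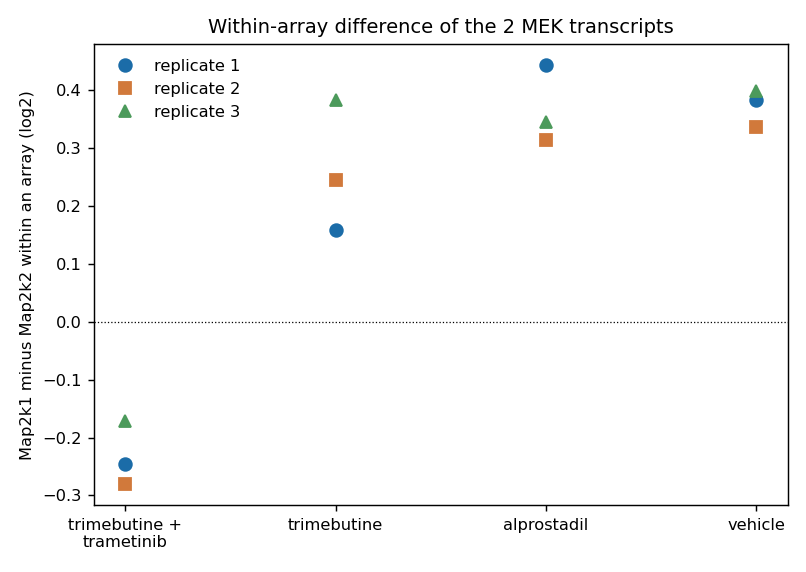
Map2k1 minus Map2k2 within each array (y axis, log2 units), by treatment (x axis), with a symbol for each replicate number. The arrays with trametinib lie from −0.28 to −0.17 and the 9 others from 0.16 to 0.44.

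The promoters of the genes with the largest rises and of the MEK pair are shown because the 3 that rose and the 1 that fell can be set side by side. Each window holds the 250 bases before the gene's start in RefSeq's GRCr8 table, on the gene's own strand, and all 6 genes had an entry. They are chr2:193271220-193271469 on the plus strand for Nras, chr4:69476932-69477181 on the minus strand for Braf, chr8:73650185-73650434 on the minus strand for Map2k1 and chr7:9260799-9261048 on the minus strand for Map2k2. Capitals mark matches on either strand to the cyclic AMP response element (TGACGTCA), the core of an ETS site (CCGGAAG) and the GC box (GGGCGG), which do not overlap each other in these windows.
Nras: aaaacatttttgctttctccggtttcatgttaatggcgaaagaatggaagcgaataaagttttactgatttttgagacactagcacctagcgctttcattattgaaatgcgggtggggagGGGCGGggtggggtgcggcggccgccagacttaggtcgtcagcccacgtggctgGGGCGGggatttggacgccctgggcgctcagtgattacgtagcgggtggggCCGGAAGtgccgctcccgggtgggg
Braf: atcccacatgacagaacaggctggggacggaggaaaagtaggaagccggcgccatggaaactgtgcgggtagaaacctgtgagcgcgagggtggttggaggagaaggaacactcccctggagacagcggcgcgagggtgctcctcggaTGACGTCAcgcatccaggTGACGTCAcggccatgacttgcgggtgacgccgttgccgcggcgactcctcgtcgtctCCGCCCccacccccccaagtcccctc
Map2k1: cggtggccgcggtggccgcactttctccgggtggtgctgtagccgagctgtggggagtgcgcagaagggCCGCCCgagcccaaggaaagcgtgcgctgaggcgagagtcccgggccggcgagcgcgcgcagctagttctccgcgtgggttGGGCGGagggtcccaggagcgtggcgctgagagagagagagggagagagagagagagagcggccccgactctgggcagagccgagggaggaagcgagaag
Map2k2: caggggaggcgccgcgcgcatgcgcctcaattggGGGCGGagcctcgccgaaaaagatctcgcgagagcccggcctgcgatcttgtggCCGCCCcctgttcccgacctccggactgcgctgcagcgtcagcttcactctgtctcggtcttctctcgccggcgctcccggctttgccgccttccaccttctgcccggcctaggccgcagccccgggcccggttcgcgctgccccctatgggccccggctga

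Braf held 2 full cyclic AMP response elements, which began 102 and 84 bases before the start, and the other 5 genes held none. Of all 33469 promoter windows of this length, 1.59% held at least 1 such match and 10 windows (0.0299%) held at least 2. Braf was at 8.70 ± 0.02 with alprostadil and 8.64 ± 0.04 with vehicle (SD, n = 3 each), a difference of 0.06 with a 95% interval from −0.07 to 0.18. The ETS core matched once among the 6 genes, in Nras, 25 bases before the start, and in 7.27% of all windows. GC boxes were found in 5 of the 6, in all but Araf, and in 30.5% of all windows. CCAAT, found in 34.0% of all windows, matched in Hras, Araf and Map2k2, and CACGTG, found in 5.59%, matched in Nras. The AP-1 letters TGACTCA, found in 4.05% of all windows, matched in none of the 6. The CCAAT match of Map2k2 adjoins a GC box, and the CACGTG of Nras ends before its nearer GC box. The windows of the 6 were 52.8% to 71.6% G and C, beside a median of 51.2% over all windows. These motifs were chosen with the values known, and a match is a description of letters, not of binding.

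Against vehicle, the combination gave the same calls, with 4 genes higher, Map2k1 lower and Araf not passing, where 35.0% of all genes tested passed (17.5% in each direction). The vehicle and trimebutine comparisons share the arrays of the combination. Nras was higher by 0.40 (SE 0.05, adjusted p = 0.000165), Braf by 0.42 (SE 0.06, adjusted p = 0.000146), Hras by 0.35 (SE 0.07, adjusted p = 0.00267) and Map2k2 by 0.30 (SE 0.08, adjusted p = 0.0112). Map2k1 fell by 0.31 on the log2 scale (SE 0.06, adjusted p = 0.00117). The Map2k2 call was lost without replicate 2 with the replicate block (adjusted p = 0.0758), and so was its call against alprostadil (0.0666), where its lowest and highest differences were 0.21 and 0.33. The changes of Map2k2 within replicates were more even here, at 0.30, 0.29 and 0.29, than against trimebutine. Araf differed by 0.16 (SE 0.06, adjusted p = 0.0738) and passed with the replicate number as a block (adjusted p = 0.0431, where 43.2% of all genes passed), with adjusted p from 0.0367 to 0.281 over all alternatives.

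Against alprostadil, all 6 passed, where 37.9% of all genes tested did. The alprostadil group had the lowest mean of Araf, with arrays at 9.76, 9.92 and 9.87, beside 10.05, 10.16 and 10.13 with the combination. Its difference there was 0.26 (SE 0.06, adjusted p = 0.00656), within replicates 0.29, 0.23 and 0.26. Whether this differs from the 0.16 against vehicle is the comparison of alprostadil with vehicle, in which Araf differed by −0.10 (SE 0.06, adjusted p = 0.823).

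Without trametinib the 6 genes varied little. Between trimebutine and vehicle none passed, and none of all 13636 genes did either by limma (0% called, with 143 genes at an unadjusted p under 0.05). The differences lay from −0.07 for Map2k1 to 0.09 for Hras. Hras was higher in each replicate (0.15, 0.07 and 0.04), and Map2k1 was lower in each (−0.03, −0.11 and −0.06). Braf was the only one whose groups did not overlap, lower with trimebutine, but they nearly touched. Its highest array with trimebutine was at 8.614 and its lowest with vehicle at 8.615. Of all genes tested, 4.23% did not overlap in either direction, and 2.06% were lower without overlap. The 95% intervals of the 6 differences reached from −0.19 to 0.24.

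Alprostadil against vehicle gave no call among the 6 either, where 0.389% of all genes tested passed. The differences were −0.10 for Araf and 0.06 for Braf at the ends, with intervals from −0.24 to 0.18 over the 6. Araf was lower in each replicate (−0.19, −0.10 and −0.02) and Braf higher in each (0.10, 0.06 and 0.01), both with the largest size in replicate 1. Between alprostadil and trimebutine none passed, where 0.381% of all genes did. Braf again was the only one whose groups did not overlap, higher with alprostadil (8.68 to 8.72) and lower with trimebutine (8.60 to 8.61). Of all genes tested, 12.6% did not overlap in either direction, and 6.16% were higher without overlap. In order of mean level, the combination was at the top for the 5 genes other than Map2k1 and at the bottom for Map2k1. Among the other 3 groups no difference of the 6 passed, with a lowest adjusted p of 0.699, or 0.338 with the replicate block, both for Hras between alprostadil and trimebutine. Braf was at 8.70 ± 0.02 with alprostadil and 8.61 ± 0.01 with trimebutine (SD, n = 3 each), and its limma adjusted p was 0.744. The Braf difference was above 0 in each replicate (0.12, 0.08 and 0.09). Hras (−0.065, −0.199 and −0.135) and Araf (−0.223, −0.055 and −0.049) were lower with alprostadil than with trimebutine in each replicate, and did not pass either.

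**Figure D3:**
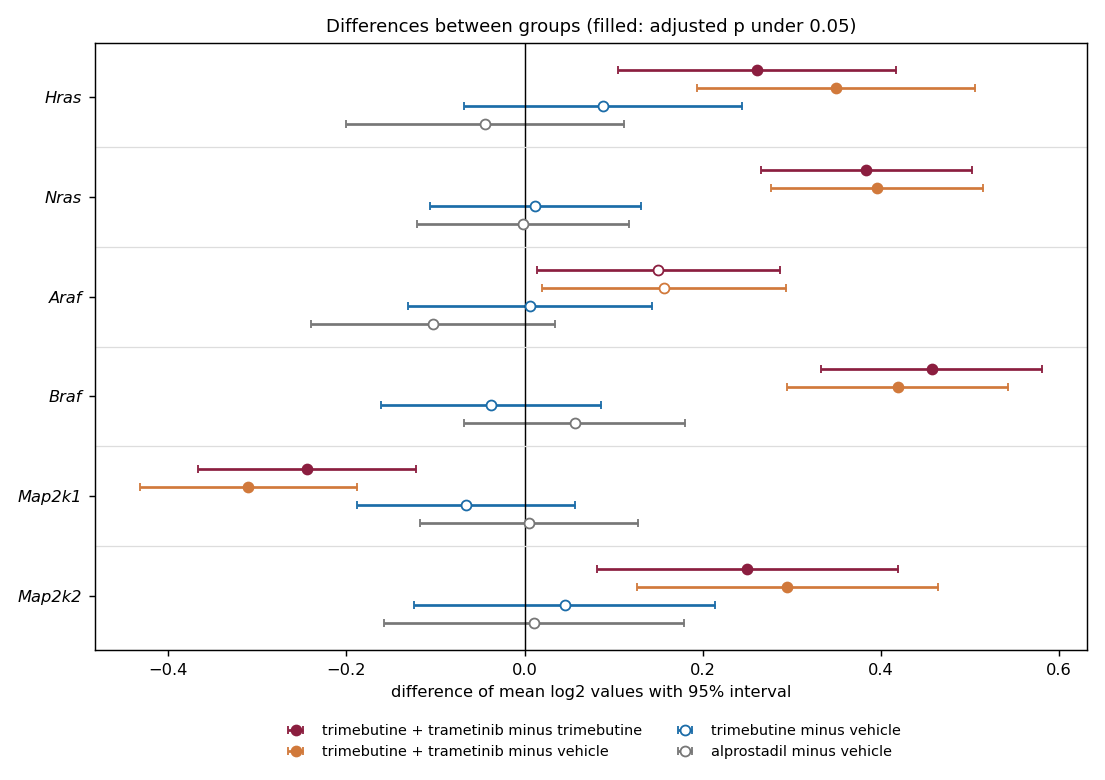
Difference of mean log2 values (x axis) for each gene (y axis) in 4 comparisons, with 95% intervals of the limma fit, n = 3 arrays per group. Filled points passed at an adjusted p under 0.05. The comparisons with trametinib in the first group lie away from 0, to the left for Map2k1 and to the right for the others, and those without it lie between −0.10 and 0.09.

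The treatment accounted for most of the variation of the 6 genes over the 12 arrays, and a limma F test over the 4 groups called all 6, where 32.5% of all genes passed. In the balanced layout of 4 groups by 3 replicate numbers, treatment held 95.7% of the sum of squares of Nras, 95.2% of Braf and 91.6% of Map2k1. It held 84.3% for Hras, 76.3% for Araf and 72.5% for Map2k2, beside a median of 49.7% over all genes tested. The replicate number held 1.44% (Braf) to 11.9% (Araf), beside a median of 13.9%. Map2k2 had the largest remainder, 20.1%, and Nras the smallest, 0.985%. These shares describe the arrays and include the difference between the arrays with the drug pair and those without trametinib.

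Genes with the most similar pattern over the 12 arrays are given by Pearson's r as a description. All such values share the step between the 3 arrays with trametinib and the 9 without. Closest to Nras were Mfap5 (0.995), Nova1 and Selenon (0.993 each), and closest to Braf were Osr1, Dusp8 (0.984 each) and Babam2 (0.983). Mfap5 differed by 4.67 between the combination and trimebutine, so a like pattern was reached with a change of very different size. Map2k1 was closest to Bcl2l11 (0.984), Ggh (0.981) and Epn2 (0.975), which fell by 0.70, 0.84 and 0.28 on the log2 scale. Araf was closest to Traf7 (0.983), Scamp4 (0.982) and Bag2 (0.974), Hras to C10h16orf90 (0.948), Mapk7 and Stc2 (0.944 each), and Map2k2 to Dnajc30 (0.960), G4 (0.956) and Mcrip1 (0.950).

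Most transcripts known to follow ERK activity fell when trametinib was added. Of 16 such genes, 13 fell, 1 rose and 2 did not pass, with a median difference of −0.82 beside 0.03 for all genes tested. At the same threshold 16.6% of all genes tested fell and 16.8% rose. The ERK phosphatase gene Dusp6 fell by 3.23 on the log2 scale (SE 0.14, adjusted p = 4e-08), to 8.38 ± 0.30 with the combination, against 11.61 ± 0.14 with trimebutine (SD, n = 3 each). The feedback inhibitor gene Spry4 (−2.01), the AP-1 subunit gene Fosl1 (−1.71) and the ETS factor genes Etv4 (−0.71) and Etv5 (−0.37) fell as well. The 2 that did not pass, Ier3 among them, were both at −0.17, and Etv5 and Spred2 (−0.44) had differences no larger in size than that of Braf. Spry2, another feedback inhibitor gene, was the one that rose (0.58). All 8 proliferation markers fell, from −3.15 for Top2a to −0.74 for Mcm2, and their summed level lay from 11.36 to 11.49 with the combination, against 13.07 to 13.38 with trimebutine. Their part in the changes of the cascade genes was not tested.

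Among genes that load and unload RAS, the share that passed was close to that of all genes tested (33.4%). Of 17 tested adaptors, exchange factors and GTPase-activating proteins, 1 rose, 5 fell and 11 did not pass (median −0.09). Of the GTPase-activating protein genes, whose products switch RAS off, Rasa1, Rasa2 and Rasal2 fell by 1.05, 0.47 and 0.31 on the log2 scale, while Rasa3 (−0.17) and Rasal1 (−0.02), among others, did not pass. Rasa1 was at 10.50 ± 0.12 with the combination, against 11.56 ± 0.05 with trimebutine (SD, n = 3 each, adjusted p = 4.52e-07). The adaptor gene Shc1 fell by 0.36. The exchange factor gene Rasgrf2, whose product switches RAS on, had a mean of 5.65 with the combination, under the low-signal limit of 5.83, against 7.22 with trimebutine. It is 1 of the 5 that fell, it passed the filter on low values through the other groups, and the size of its change is not given for that reason. Ptpn11, which encodes the phosphatase SHP2 that acts between receptors and RAS, rose by 0.38 (adjusted p = 0.000171).

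**Figure D4:**
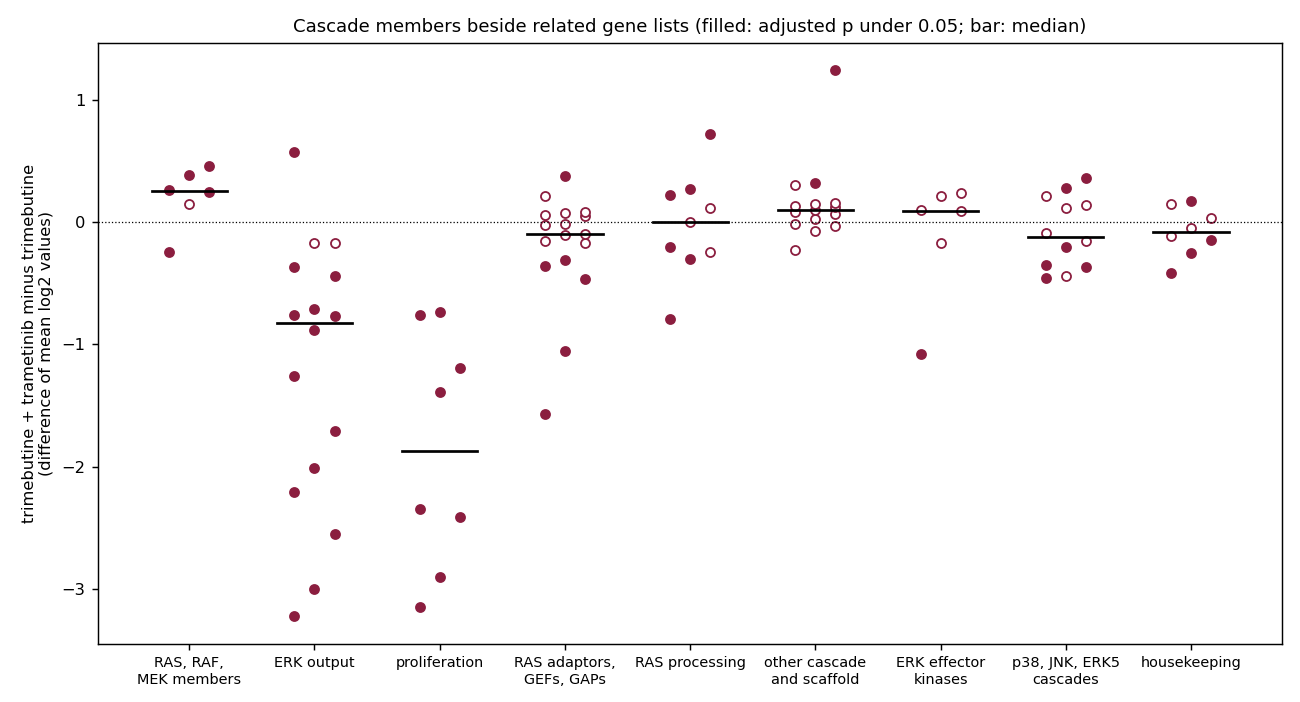
Difference of mean log2 values between trimebutine with trametinib and trimebutine alone (y axis) for each tested gene of 9 groups (x axis), n = 3 arrays per treatment. Filled points passed at an adjusted p under 0.05 and bars are medians. The cascade members lie between −0.24 and 0.46, while the ERK output genes reach −3.23.

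Among 15 other cascade genes and scaffolds, 2 rose, none fell and 13 did not pass (median 0.10), where 33.4% of all genes tested passed. Both that rose were relatives of RAS, while Mras, another relative, did not pass (0.16, adjusted p = 0.4515). Rras2, a RAS-related GTPase gene, rose by 1.25 (SE 0.12, adjusted p = 1.38e-05), to 10.26 ± 0.08 with the combination, against 9.01 ± 0.22 with trimebutine (SD, n = 3 each), more than any of the 6 genes. Rras rose by 0.32 (adjusted p = 0.0426). The scaffold genes Ksr1 (0.15) and Shoc2 (0.08), the RAF inhibitor gene Pebp1 (−0.07) and the MEK partner gene Lamtor3 (0.03) did not pass.

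The 9 genes that process and carry RAS proteins split, with 3 that rose, 3 that fell and 3 that did not pass (median 0.00). Of all genes tested, 33.4% passed (16.8% higher and 16.6% lower). Zdhhc9 and Golga7 encode the subunits of a palmitoyltransferase that acts on HRAS and NRAS, and they moved apart. Zdhhc9 differed by 0.72 (adjusted p = 1.56e-05) and Golga7 by −0.79 (adjusted p = 5.17e-05). The depalmitoylating thioesterase genes Lypla1 and Lypla2 fell by 0.20 and 0.30 on the log2 scale. The farnesyltransferase subunit gene Fnta rose by 0.22 (adjusted p = 0.0378), while Fntb, which encodes its partner, differed by 0.002 (SE 0.11, adjusted p = 0.992). Pde6d, which encodes a carrier of farnesylated RAS, rose by 0.27.

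Downstream and in parallel, changes were mixed, where 33.4% of all genes tested passed (16.8% higher and 16.6% lower). Of 6 kinases phosphorylated by ERK, Rps6ka2, which encodes a p90 ribosomal S6 kinase, fell by 1.08 on the log2 scale (adjusted p = 3.91e-05) and 5 did not pass. Of 12 kinases of the p38, JNK and ERK5 cascades, 2 rose, 4 fell and 6 did not pass (median −0.12). Those that rose were Mapk7 (0.28), which encodes ERK5, and Mapk12, a p38 gene. Mapk12 was at 6.19 with the combination. Its means of 5.833 with trimebutine, 5.785 with vehicle and 5.746 with alprostadil were at or under the low-signal limit of 5.83. It passed the filter on low values through the combination arrays, and the size of its change is not given for that reason. The p38 and JNK activator genes Map2k3 (−0.46), Map2k4 (−0.20) and Map2k6 (−0.35) and the JNK gene Mapk9 (−0.37) fell, and Map2k6 was at 5.88 with the combination, close to the low-signal limit. In none of these lists apart from that of ERK output did a gene pass between alprostadil and vehicle, and none passed between trimebutine and vehicle. In the ERK output list Phlda1 (1.09) and Ier3 (0.59) rose with alprostadil against vehicle, where 0.389% of all genes tested passed. With the replicate block, the RAS exchange factor gene Rasgrp3 also passed there (−0.85, adjusted p = 0.000305, where 1.88% of all genes passed). Without the block Rasgrp3 did not pass (adjusted p = 0.241), and it was at 5.92 with alprostadil, close to the low-signal limit.

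The median value of an array was 6.409 at the lowest and 6.505 at the highest, and r between 2 arrays of the same treatment was at least 0.985. Of 12 precursor and dermal markers, 11 had a feature and all 11 were above the low-signal limit, Twist1 (6.199) and Sox2 (6.66) being nearest to it. Between the combination and trimebutine, 1 of these 11 markers rose, 3 fell and 7 did not pass. Of 8 tested housekeeping genes 1 rose, 3 fell and 4 did not pass, where 33.4% of all genes tested passed. The precursor marker that rose was Ncam1 (1.835), and those that fell were Wnt5a (−1.45), Pdgfra (−0.79) and Twist1 (−0.29). The summed level of the precursor markers lay from 15.15 to 15.18 with the combination, against 15.16 to 15.20 with trimebutine. Sums were taken before the log, so the brightest genes, such as Vim (13.53) and Fn1 (13.33), weigh most. The sum can stay level while single markers change. All 9 macrophage and leukocyte markers were above the limit, with a summed level from 11.002 to 11.799 with the combination, against 11.68 to 12.36 with trimebutine. Of these 9, Cd68 fell by 1.03 on the log2 scale, C1qa rose by 0.52 and 7 did not pass. Cd68, with a mean of 10.53 over all arrays, was the brightest of the 9 and weighs most in their sum. For the same groups the sums were 8.17 to 8.24 against 8.07 to 8.17 for 4 keratinocyte genes, 8.92 to 9.37 against 8.79 to 9.05 for 4 Schwann genes, 10.91 to 11.09 against 10.91 to 11.12 for 5 melanocyte genes and 7.55 to 7.71 against 7.37 to 7.54 for 3 endothelial genes. Mitf, with a mean of 10.89 over all arrays, made up most of the melanocyte sum, while Pmel was at 6.515 and Dct at 5.917. Dsg3, Tyr, Mlana and Tek were under the limit. The part of these cells in the cascade genes' changes was not tested.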

How the data were processed

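Per the labels, biotin marked the material made from total RNA; the series' design text names the Rat Gene 2.0 ST array of Affymetrix, which uses a single colour. The deposited table holds log2 expression values of 36685 features on 12 arrays, for which the submitters' processing notes name the tools oligo and RMA. Their versions and settings were not given in the sources used here. RMA sets arrays to a common distribution, so these values cannot show a change in the total RNA of a cell. The number of arrays limits the precision.

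Groups and replicate numbers came from sample titles. Symbols came from the supplied platform annotation (18511 features with 1 symbol, 575 with several, 17599 with none) and were updated through Entrez identifiers to GRCr8 for 18394. The brightest feature stood for a gene, and genes under the 25th percentile of mean log2 value, 5.83, were left out. One model with a mean per group was fitted with limma 3.58.1 in R 4.3.3 (lmFit, contrasts.fit, eBayes; 8 residual degrees of freedom), two-sided, with Benjamini-Hochberg adjustment over 13636 genes. The fit was tested on simulated data, drawn independently for each array with no effect of the isolate and with few genes changed. Those settings differ from these data.

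All 18 pairs of arrays with the same replicate number deviated together (r from 0.21 to 0.81), beside −0.71 to 0.10 for the 36 others, and the design text names 3 isolates, so pairing by number was accepted. The fit with that block is an alternative, like other filters, scalings, features and runs without an array. The spread behind the p-values is that of cultures from these isolates. Named genes were all members, list genes that passed (up to 6 by p), the ERK output genes Dusp6, Spry4, Etv4, Etv5 and Fosl1, markers, and the 3 genes most like each member. Other list genes were picked knowing their values. The members and lists were chosen with earlier results of these data known.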

Additional observations from a re-analysis of the deposited data

How the results depend on the processing

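Each result was recomputed under up to 23 alternatives. With trametinib added to trimebutine, Nras, Braf and Map2k1 passed in all 23, Hras in 19 and Map2k2 in 16, and Araf, which did not pass, did so in 1 (without replicate 1 in all groups, with the replicate block). The 5 calls became 3 without trimebutine replicate 3, without combination replicate 2, or without replicate 2 in all groups with the replicate block, where Hras and Map2k2 were lost, and runs without arrays gave 3 to 6 calls. With the replicate block and all arrays, 5 members passed against trimebutine, where 5723 of all genes did, and 6 against vehicle. That block changed 1 call of a member, Araf against vehicle (adjusted p = 0.0431). The F test over the 4 groups called all 6 members, where 32.5% of all genes passed. It called 2 without replicate 2 with the replicate block, its lowest among the runs without arrays, the highest being 6. Araf kept that call in 9 of 22 alternatives and Map2k2 in 15.

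For alprostadil against vehicle, the count of all genes, 53, was 257 with the replicate block and 29 with only the arrays compared. It was 30 to 57 without single arrays, and with the replicate block 88, 37 and 125 without replicates 1, 2 and 3. For alprostadil against trimebutine the count, 52, was 342 with the replicate block and 29 with only the arrays compared. It was 29 to 56 without single arrays, and with the replicate block 91, 19 and 148 without replicates 1, 2 and 3. No member was called in these or in trimebutine against vehicle under any alternative run, but differences near 0 changed sign. When arrays were centred on their medians, Araf was at 0.000 between trimebutine and vehicle, and between alprostadil and vehicle Map2k1 was at −0.013 and Map2k2 at −0.008. Nras was at 0.002 between alprostadil and vehicle when quantile normalization was repeated. Between trimebutine and vehicle, runs without single arrays gave −0.024 to 0.036 for Nras, −0.027 to 0.039 for Araf and −0.004 to 0.093 for Map2k2. With the replicate block and without one replicate number, the sign changed to −0.001 for Nras, −0.005 and −0.006 for Araf and −0.030 for Map2k2. Between alprostadil and vehicle, the same runs gave −0.038 to 0.017 for Nras, −0.017 to 0.043 for Map2k1 and −0.036 to 0.087 for Map2k2, and with the block 0.022 and 0.004 for Nras, 0.000 and −0.007 for Map2k1 and −0.004 and −0.025 for Map2k2. Between alprostadil and trimebutine they gave −0.038 to 0.000 for Nras and −0.083 to 0.042 for Map2k2, and with the block 0.006 for Nras and 0.091 for Map2k2. The cause of these changes was not tested, except that runs without arrays hold fewer samples.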
